A study of Mus musculus with 8 samples.

Results

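The lysosomal cathepsin genes Ctss, Ctsb, Ctsc, Ctsd, Ctsh, Ctsk, Ctsl and Ctsz and the cystatin C gene Cst3 were followed in the pregnant mouse uterus with and without depletion of regulatory T cells. These 9 genes were taken by symbol, each matched 1 Ensembl identifier of the 49585 in the count table, and all 9 were among the 22693 genes with enough reads to be tested. All libraries came from females of the Foxp3DTR line, 8 weeks old, which had been mated with BALB/c males and were collected on day 8 of pregnancy (E8). The line carries the receptor for diphtheria toxin under control of Foxp3, a gene specific to regulatory T cells, which makes these cells sensitive to the toxin. One group was injected intraperitoneally with 1 µg of diphtheria toxin (DT) on E1, E3, E5 and again E7, the other with PBS. Per the labels' protocols this regimen removes 85% of regulatory T cells, and the whole uterus with the fetal tissues inside it was taken as 1 sample. There were 4 libraries of each kind, written below by label and replicate number (DT 1, DT 3, DT 4 and DT 5; PBS 1, PBS 2, PBS 4 and PBS 6). The protocols name as many females as libraries, so each library was taken as 1 female. The titles also end in a suffix whose meaning the labels do not give: S1 for PBS 1 and PBS 2, S2 for PBS 4 and PBS 6, S3 for DT 1 and DT 3, and S4 for DT 4 and DT 5. No suffix occurs in both groups, so whatever it stands for cannot be told apart from treatment.

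Cathepsins are proteases of the endosome and lysosome. Most are cysteine proteases of the papain family, whereas cathepsin D is an aspartic protease, and all are made as inactive precursors that are cleaved in the acid compartment. Cystatin C is a secreted inhibitor that blocks cysteine cathepsins outside the cell. In the uterus of early pregnancy cathepsins are known from invading trophoblast, decidua and macrophages, and in antigen-presenting cells they break down the invariant chain that occupies the groove of MHC class II molecules.

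Total counts ranged from 94794512 to 109847604 per library, and each of the 9 genes held between 1996 and 82666 reads in every library. Foxp3 was not lower in the libraries labelled DT (5.41 ± 0.345 CPM against 4.89 ± 0.44 CPM, SD, n = 4 each; log2 fold change 0.15 ± 0.10, SE; adjusted p = 0.595 by edgeR). It therefore gave no check of the labels, and groups are called by label. CPM is the read count scaled to library size, with TMM factors between libraries. The uterine genes Pgr, Esr1, Hoxa10, Hoxa11, Hand2, Myh11, Acta2, Des, Foxa2 and Bmp2 were detected, with a sum between 5741 and 6754 CPM. Libraries differed in their conceptus and decidual signal within each group. The sum of 13 trophoblast genes was 831 and 1448 CPM in PBS 1 and PBS 2, 345 and 388 CPM in PBS 4 and PBS 6, and 278 to 459 CPM in the libraries labelled DT. Gata2 (137 to 177 CPM over the libraries) and Gata3 (77.7 to 176 CPM) made up most of this sum outside PBS 1 and PBS 2. In the other 6 libraries the sum therefore says little about the rarer genes. Hand1, for instance, was at 1.46 CPM in DT 1, 2.14 CPM in PBS 4 and 14.1 CPM in DT 3. The sum of 11 yolk sac genes was 96.6 and 230.2 CPM in PBS 1 and PBS 2 and 15.8 to 33.4 CPM in the other 6 libraries. The sum of 12 decidual stroma genes was 2961 CPM in DT 1 and 6392 to 12000 CPM elsewhere. Prl8a2 alone was at 687 CPM in DT 1 and 2893 to 8960 CPM elsewhere, so it carried most of this difference. Of the 13 trophoblast genes 0 passed by edgeR, 1 was lower by DESeq2 and 3 were lower at an unadjusted p under 0.05, with a median log2 fold change of -1.24 that was 0.58 without PBS 1 and PBS 2. Of the 11 yolk sac genes 0 passed by edgeR, 3 were lower by DESeq2 and 8 were lower at an unadjusted p under 0.05, with a median of -2.76 that was -0.33 without them. DT 1, PBS 1 and PBS 2 therefore stood apart in these sums, and the members' results that rest on them are given with and without them. PBS 4 did not stand apart in these sums, but over all genes its log2 CPM had the lowest mean correlation with its own group. That mean r was 0.977, against 0.989 with the libraries labelled DT. Without PBS 4, 4946 genes were at an unadjusted p under 0.05 by edgeR, against 1975 with all libraries.

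Among the 9 genes, Ctss rose and none of the other 8 passed the test. Over all 22693 genes, 0.326% were called by edgeR's quasi-likelihood test at a Benjamini-Hochberg adjusted p under 0.05, and 1 of the 9 genes was called. At an unadjusted p under 0.05, 2 of the 9 genes (Ctss and Ctsc) passed, against 8.7% of all genes. The log2 fold changes (DT over PBS) were positive for Ctss, Ctsc, Ctsh and Cst3 and negative for Ctsb, Ctsd, Ctsk, Ctsl and Ctsz. Their median was -0.21, against 0.01 over all genes tested. It was 0.13 without PBS 1 and PBS 2 and -0.35 without PBS 4. Groups did not overlap for 2 of the 9 genes, Ctss and Ctsc, both with DT above PBS, against 3.33% of all genes in that direction, 1.73% in the other and 5.06% in either.

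**Figure D1:**
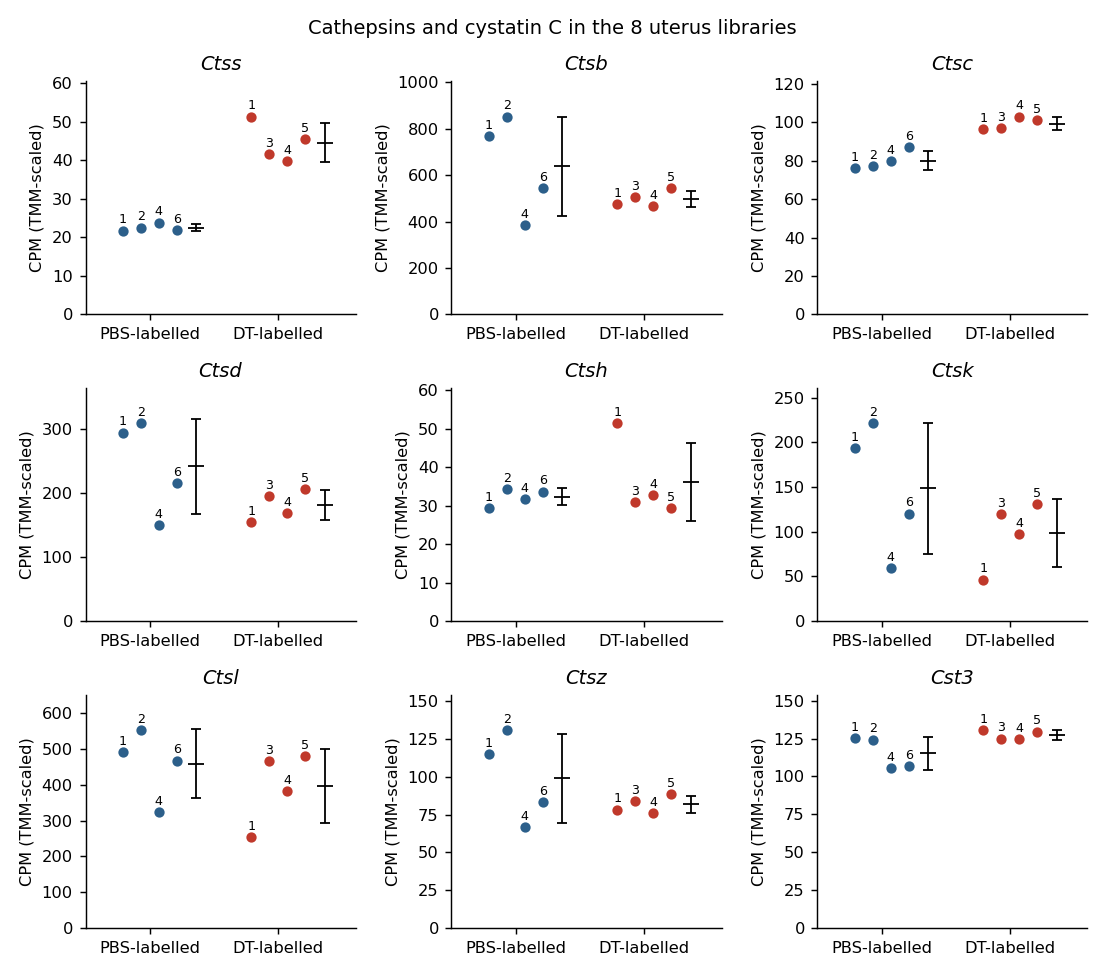
CPM (TMM-scaled, linear axes from 0) of each gene in each library, with the replicate number above each point and the mean ± SD of 4 libraries beside each group. Ctss lies between 39.9 and 51.3 CPM in the libraries labelled DT and between 21.7 and 23.8 CPM in the libraries labelled PBS, while Ctsb, Ctsd, Ctsk, Ctsl and Ctsz are highest in PBS 1 and PBS 2.

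Ctss (ENSMUSG00000038642, plus strand of chromosome 3, 95526786 to 95556403, GRCm38) encodes cathepsin S, the endopeptidase that cleaves the last part of the invariant chain in dendritic cells, B cells and macrophages. It measured 51.3, 41.6, 39.9 and 45.6 CPM in DT 1, DT 3, DT 4 and DT 5. In PBS 1, PBS 2, PBS 4 and PBS 6 it measured 21.7, 22.5, 23.8 and 21.8 CPM. Every DT-labelled library was above every PBS-labelled library, and the libraries labelled PBS differed among themselves by a coefficient of variation of 4.27%. The means were 44.6 ± 5.09 and 22.5 ± 0.959 CPM (SD, n = 4 each), 1.98-fold, with a log2 fold change of 0.99 ± 0.09 (SE; adjusted p = 0.0153 by edgeR; 95% interval 0.79 to 1.19). This was the second smallest p-value among all genes tested. The call was lost without DT 3, DT 4 or DT 5 or PBS 1, PBS 2 or PBS 6, although the log2 fold change stayed between 0.92 and 1.04 when any 1 library was left out (edgeR adjusted p from 0.00248 to 0.0849). In those 6 fits edgeR called 0 genes of the whole table, with 1066 to 2047 genes at an unadjusted p under 0.05, so the other edgeR calls named below were lost there as well. Without PBS 1 and PBS 2 the value was 0.96 (adjusted p = 0.369 by edgeR), and without these and DT 1 it was 0.89 (adjusted p = 0.0395 by edgeR). In whole tissue, more cells that contain a transcript and more transcript per cell cannot be told apart.

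**Figure D2:**
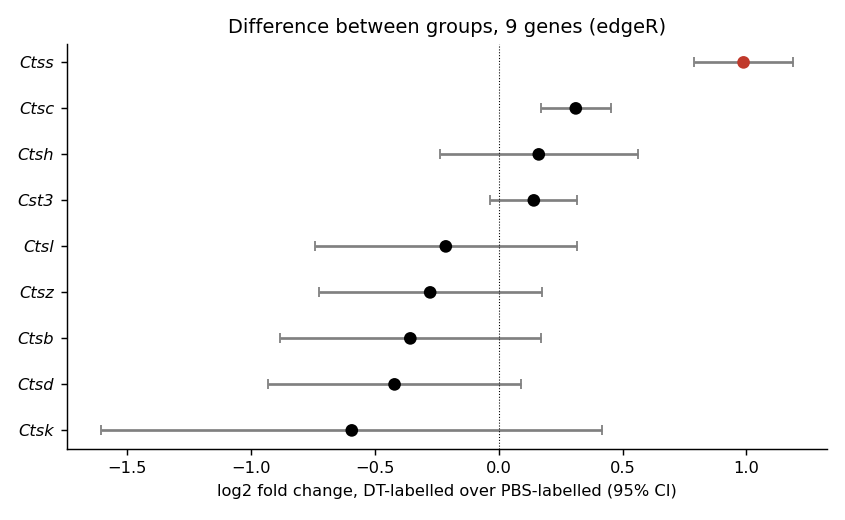
Log2 fold change of each gene, DT over PBS, with its 95% confidence interval from the edgeR fit; the red point passed an adjusted p under 0.05. Ctss sits at 0.99 with an interval of 0.79 to 1.19, and the interval of Ctsk, from -1.60 to 0.42, is the widest of the 9.

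Ctsk, the collagen-degrading cathepsin best known from osteoclasts, is the gene next to Ctss. Both lie on the plus strand of chromosome 3, with 17423 bases and no other annotated gene between them, and Ctsk (ENSMUSG00000028111) spans 95499256 to 95509362 of GRCm38. The 250 bases before the RefSeq start site of each (GRCm38.p6, plus strand, chr3:95526536-95526785 for Ctss and chr3:95498960-95499209 for Ctsk) are shown because Ctss was the 1 gene called and Ctsk is its neighbour. Capitals mark the core of the interferon-stimulated response element (ISRE), searched on both strands as GAAA, any 2 bases, and GAAA again.
Ctss: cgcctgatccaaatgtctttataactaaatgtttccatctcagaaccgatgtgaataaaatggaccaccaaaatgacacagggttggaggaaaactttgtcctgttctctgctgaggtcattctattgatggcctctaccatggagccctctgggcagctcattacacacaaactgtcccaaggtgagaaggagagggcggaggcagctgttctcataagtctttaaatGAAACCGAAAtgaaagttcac
Ctsk: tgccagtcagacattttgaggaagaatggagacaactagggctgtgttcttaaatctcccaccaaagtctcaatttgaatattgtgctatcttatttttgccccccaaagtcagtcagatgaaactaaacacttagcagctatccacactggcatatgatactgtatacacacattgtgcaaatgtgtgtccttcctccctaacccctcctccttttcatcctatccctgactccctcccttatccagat
The Ctss window holds 1 match, GAAACCGAAA on the gene's strand, 21 to 12 bases before the start site, and the Ctsk window holds no match. Among 32851 RefSeq promoter windows of this length, 2.98% hold the motif. Windows were found for 7 of the 9 genes (not for Ctsb and Ctsh), and among these 7 the ISRE core was found in that of Ctss. The gamma-activated site, searched as TTCNNNGAA, was found once, in the Ctsc window (236 to 228 bases before the start site; 7.02% of all windows hold it). This start site lies 61 bases inside the RefSeq gene. Gene spans printed in this text are from GENCODE and can differ from those of RefSeq. The E-box CACGTG, the core of the element bound by the lysosomal regulator TFEB, was found at 2 places in the Ctsd window (245 to 240 and 98 to 93 bases before the start site; 6.02% of all windows). The Ctsd start site, 142387827, is the outer start of the RefSeq gene but lies inside the GENCODE span. The nearer match therefore lies within the GENCODE span. The E-box was also in the Ctsl window, whose listed start site lies 252 bases inside the RefSeq gene, so this whole window lies within the gene and not before it. No match overlapped one of another motif. A match in these letters is no evidence of binding.

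Ctsk measured 46.4, 120.0, 97.1 and 131 CPM in DT 1, DT 3, DT 4 and DT 5 and 194, 221, 59.7 and 120.4 CPM in PBS 1, PBS 2, PBS 4 and PBS 6. The groups overlapped, and the highest library exceeded the lowest 4.77-fold, the widest spread of the 9 genes. Its log2 fold change was -0.59 ± 0.44 (SE; adjusted p = 0.609 by edgeR). Without PBS 1 and PBS 2 it was 0.13, and without these and DT 1 it was 0.37, so its sign rested on the libraries that stood apart.

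Ctsc (ENSMUSG00000030560, plus strand of chromosome 7, 88278085 to 88310888) encodes cathepsin C, the dipeptidyl peptidase that activates several granule proteases of cytotoxic lymphocytes, neutrophils and mast cells. It measured 96.4, 96.9, 103 and 101 CPM in the libraries labelled DT and 76.2, 77.1, 80.0 and 87.0 CPM in the libraries labelled PBS, in the order of replicates above. The groups did not overlap. The difference was small, 1.24-fold, with a log2 fold change of 0.31 ± 0.06 (SE; 95% interval 0.17 to 0.45), and edgeR did not call it (adjusted p = 0.146). DESeq2 did (adjusted p = 0.000422), in a test that called 1.47% of all genes. Limma voom did not (adjusted p = 0.151). Ctsc stayed between 0.25 and 0.42 on the log2 scale in all 19 alternative fits.

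Granule protease genes of lymphocytes, neutrophils and mast cells were examined beside it. Whether cathepsin C activates each of their products was not tested. Of 15 tested granule protease genes, 0 passed by edgeR over all genes, by DESeq2 or by limma voom, 1 gene was higher and 3 genes were lower at an unadjusted p under 0.05, and the median log2 fold change was -0.81. Granzyme B (Gzmb) measured 82.9 ± 20.1 CPM in the libraries labelled DT and 149 ± 54.4 CPM in the libraries labelled PBS (SD, n = 4 each; adjusted p = 0.531 by edgeR). Gzmc, another granzyme, had a log2 fold change of -1.38 ± 0.55 (SE; adjusted p = 0.561 by edgeR), and the mast cell tryptase Tpsb2 one of 1.11 ± 0.41 (adjusted p = 0.553 by edgeR). The summed level of the list was 1731 and 2035 CPM in PBS 1 and PBS 2 and 226 to 797 CPM in the other 6 libraries, so it was high where the conceptus signal was high. The median of the list was 0.07 without PBS 1 and PBS 2, where Gzmb and Gzmc were at -0.35 and -0.28. The relation of these genes to the conceptus signal was not tested.

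Ctsb, Ctsd, Ctsl and Ctsz had negative log2 fold changes that did not pass the test and followed the same libraries as Ctsk. Ctsb (ENSMUSG00000021939, plus strand of chromosome 14, 63122462 to 63145923), the most abundant of the 9 in CPM, encodes cathepsin B, which acts both as an endopeptidase and as a dipeptidyl carboxypeptidase. It measured 475, 505, 468 and 545 CPM in the libraries labelled DT and 768, 853, 386 and 544 CPM in the libraries labelled PBS. PBS 1 and PBS 2 were above the other 6 libraries, and PBS 4 was the lowest of all 8. The log2 fold change was -0.36 ± 0.23 (SE; adjusted p = 0.581 by edgeR). Part of the Ctsb reads could belong to Fdft1, which overlaps its exons on the opposite strand (11.8% of its 75-base windows).

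Ctsd (ENSMUSG00000007891, minus strand of chromosome 7, 142375911 to 142388038), the aspartic protease cathepsin D, measured 154, 195, 168 and 205 CPM in the libraries labelled DT and 294, 308, 149 and 215 CPM in the libraries labelled PBS. Again PBS 1 and PBS 2 were highest and the groups overlapped. The log2 fold change was -0.42 ± 0.22 (SE; adjusted p = 0.571 by edgeR; 95% interval -0.93 to 0.09). A share of 31.3% of its windows also lies in the overlapping model Gm49369, which had 0 counts in every library.

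Ctsl (ENSMUSG00000021477, minus strand of chromosome 13, 64359337 to 64370890), the endopeptidase cathepsin L, measured 254, 468, 384 and 480 CPM in the libraries labelled DT and 492, 553, 324 and 468 CPM in the libraries labelled PBS. DT 1 was the lowest of the 8, as for Ctsk. Its log2 fold change was -0.21 ± 0.23 (SE; adjusted p = 0.694 by edgeR). Other annotated genes hold 24.6% of its windows, so part of its count is uncertain. Ctsz (ENSMUSG00000016256, minus strand of chromosome 2, 174427493 to 174439039), the carboxypeptidase cathepsin Z (also called X), measured 78.3, 83.8, 76.2 and 88.8 CPM in the libraries labelled DT and 115, 131, 66.9 and 83.1 CPM in the libraries labelled PBS. Its log2 fold change was -0.28 ± 0.20 (SE; adjusted p = 0.600 by edgeR). The spread differed between groups for Ctsb and Ctsz as a description, with a coefficient of variation of 33.3% and 29.5% in the libraries labelled PBS and 7.04% and 6.95% in the libraries labelled DT. Without PBS 1 and PBS 2, the log2 fold changes were 0.10 for Ctsb and 0.12 for Ctsz, and Ctsd and Ctsl lay at -0.02 and -0.0043. These 4 intervals reach 0 with all 8 libraries, which does not show that the genes stayed level.

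Ctsh (ENSMUSG00000032359, plus strand of chromosome 9, 90054152 to 90076089), the aminopeptidase cathepsin H, was set apart by 1 library. It measured 51.3 CPM in DT 1 and 30.9, 32.8 and 29.4 CPM in DT 3, DT 4 and DT 5, against 29.4, 34.3, 31.7 and 33.6 CPM in the libraries labelled PBS. Its log2 fold change of 0.16 ± 0.17 (SE; adjusted p = 0.692 by edgeR) became -0.05 without that replicate. Ctss was also highest in DT 1, where both genes happened to have the same count of 6596 reads.

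Cst3 (ENSMUSG00000027447, minus strand of chromosome 2, 148871722 to 148875692), the inhibitor, varied least of the 9 genes, with a 1.24-fold range over the 8 libraries. It measured 131, 125, 124 and 129.6 CPM in the libraries labelled DT and 125, 124, 105 and 107 CPM in the libraries labelled PBS. The groups overlapped through PBS 1, and the log2 fold change of 0.14 ± 0.08 (SE; adjusted p = 0.571 by edgeR) had a 95% interval of -0.03 to 0.32.

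Scaled by exon length (RPKM, CPM per kilobase of annotated exon), the 9 genes fell into a high and a low set in the libraries labelled PBS. Ctsb was at 105 ± 35.1, Ctsd at 103 ± 31.4, Ctsk at 98.4 ± 48.4, Cst3 at 91.2 ± 8.58, Ctsl at 70.8 ± 14.9 and Ctsz at 68.7 ± 20.3 RPKM (SD, n = 4). The ranges of these 6 over libraries overlapped. Within each library labelled PBS, Ctsb was nonetheless above Ctsz and Cst3 above Ctsl, whereas Ctsb and Ctsd changed order between libraries. Ctss followed at 16.5 ± 0.706, Ctsc at 13.8 ± 0.845 and Ctsh at 7.17 ± 0.489 RPKM, and the ranges of these 3 did not overlap. In the libraries labelled DT Ctss reached 32.8 ± 3.75 RPKM and kept its seventh place. Cst3 was first there, at 100.6 ± 2.47 RPKM, ahead of Ctsb at 82.3 ± 5.79 RPKM. The length is that of all annotated exons together, so rare long transcripts lower a gene's value. As a share of the summed RPKM of the 8 cathepsins, Ctss made up 11.3%, 7.12%, 7.73% and 7.34% in DT 1, DT 3, DT 4 and DT 5 and 2.80%, 2.63%, 5.82% and 3.75% in PBS 1, PBS 2, PBS 4 and PBS 6. Every library labelled DT was above every library labelled PBS in this share. The RPKM of Cst3 over the sum of the 7 cysteine cathepsins was 0.277 to 0.384 in the libraries labelled DT and 0.196 to 0.350 in the libraries labelled PBS, and these ranges overlapped.

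Ctss was then set against each of the other 8 genes within a library, where scaling between libraries cancels. The ratio was higher in the libraries labelled DT without overlap for 7 of the 8 genes. The exception was Ctsk, where the ratio in PBS 4 (0.399) lay within the DT-labelled range. Ctss over Ctsb was 0.108, 0.0823, 0.0852 and 0.0836 in DT 1, DT 3, DT 4 and DT 5 and 0.0283, 0.0264, 0.0617 and 0.0401 in PBS 1, PBS 2, PBS 4 and PBS 6, a 2.42-fold difference of the group means on the log scale. The ratio of Ctss to Ctsd was 2.56-fold higher, to Ctsl and to Ctsz 2.32-fold, to Ctsh 1.81-fold, to Cst3 1.78-fold and to Ctsc 1.59-fold. For each of these 7 the two-sided exact permutation p was 0.0286, the smallest that 4 libraries against 4 can give, and 0.0327 after Benjamini-Hochberg adjustment over the 8 ratios. For Ctsk the ratio differed 2.85-fold (exact permutation p = 0.0857, adjusted p = 0.0857). Ctss was chosen as the numerator with its own difference known. Of 22640 genes with reads in every library, 75.2% had a Ctss ratio higher in the libraries labelled DT without overlap, so 7 of 8 is near the share over all genes and is not a result about the other cathepsins. Without PBS 1 and PBS 2, or without these and DT 1, Ctss over Ctsb was 1.79-fold and 1.68-fold higher, and Ctss over Ctsk 1.80-fold and 1.36-fold. Without PBS 4, Ctss over Ctsb was 2.87-fold higher and Ctss over Ctsk 3.79-fold, the latter then also without overlap.

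**Figure D3:**
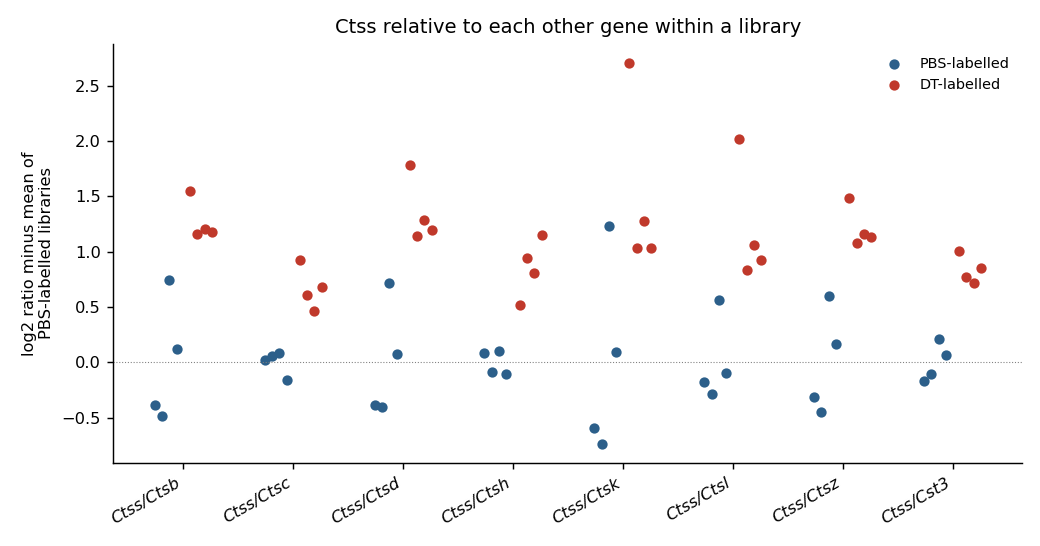
Log2 ratio of Ctss to each of the other 8 genes in each library, minus the mean of the libraries labelled PBS, with libraries labelled PBS in blue and libraries labelled DT in red. The groups separate for 7 of the 8 ratios, and for Ctsk PBS 4 lies among the libraries labelled DT.

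Genes of the MHC class II pathway, in which cathepsin S works, were among those that rose. Of 12 tested class II processing genes, 7 rose and none fell over all genes, and the median log2 fold change was 1.06. Ciita, the transactivator of class II genes, went from 3.66 ± 0.64 to 9.63 ± 1.14 CPM (SD, n = 4 each), and Cd74, the invariant chain itself, from 76.3 ± 11.7 to 174 ± 25.1 CPM. H2-DMa, which loads peptides, rose by 1.09 ± 0.11 and the class II chain gene H2-Eb1 by 1.15 ± 0.14 on the log2 scale (SE; adjusted p = 0.0153 and 0.0306 by edgeR). Legumain (Lgmn), the asparaginyl endopeptidase that can start invariant chain cleavage, had the lowest value of the list, -0.30 ± 0.24 (SE; adjusted p = 0.616 by edgeR), and followed the cathepsins that were high in PBS 1 and PBS 2. These lists were written with earlier results of these data known, so their direction is no independent evidence.

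Ctss was also set against 3 class II and 2 macrophage genes within a library, and none of the 5 ratios passed after adjustment. With 4 libraries against 4 the smallest exact p is 0.0286, which becomes 0.0714 when only 2 of 5 ratios reach it. The 2 ratios without overlap could therefore not pass, and this does not show that Ctss kept step with these genes. Ctss over Ciita was 4.67, 5.04, 4.01 and 4.87 in the libraries labelled DT and 7.05, 6.93, 5.30 and 5.70 in the libraries labelled PBS, without overlap (exact permutation p = 0.0286, adjusted p = 0.0714 over 5 ratios). Ctss over H2-Ab1, a class II beta chain, was 0.644 to 0.694 and 0.711 to 0.879, also without overlap (exact permutation p = 0.0286, adjusted p = 0.0714). Ctss over Cd74 overlapped, at 0.246 to 0.273 against 0.259 to 0.341 (exact permutation p = 0.0571, adjusted p = 0.0714). A Ctss ratio lower in the libraries labelled DT without overlap was found for 0.0839% of all genes with reads in every library.

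Part of the macrophage list was higher too, and its part in the Ctss difference was not tested. Of 16 tested macrophage genes, 3 rose and none fell, 12 had a positive log2 fold change, and the median was 0.46. Cd68 had the lowest value, at 36.6 ± 10.6 CPM in the libraries labelled DT against 53.0 ± 27.0 CPM in those labelled PBS (SD, n = 4 each; adjusted p = 0.611 by edgeR). The sum of the 16 genes was 617 to 688 CPM in the libraries labelled DT and 486 to 579 CPM in the libraries labelled PBS. None of the 16 was at 0 in all libraries. The 3 were Aif1, C1qa and C1qb, and Aif1 went from 2.64 ± 0.192 to 5.14 ± 0.68 CPM (SD, n = 4 each). DESeq2 called 4 of the list and limma voom 2. C1qb (adjusted p = 0.0491 by edgeR) kept its call in 5 of 19 alternative fits and lost it by limma voom (adjusted p = 0.056) and with DESeq2 size factors in edgeR (adjusted p = 0.0539). Ctss over the macrophage marker Adgre1 was 1.56, 2.21, 1.86 and 2.41 in the libraries labelled DT and 1.64, 1.74, 1.42 and 1.48 in the libraries labelled PBS (exact permutation p = 0.0857, adjusted p = 0.0857). Ctss over Csf1r, the receptor of the macrophage growth factor CSF1, was 0.541, 0.244, 0.204 and 0.255 against 0.138, 0.159, 0.215 and 0.168 (exact permutation p = 0.0571, adjusted p = 0.0714). Without PBS 4, groups did not overlap for 4 of the 5 ratios, against 2 of 5 with all libraries. In the dendritic cell list 1 of 11 genes rose, Xcr1, a chemokine receptor of cross-presenting dendritic cells. The list's sum overlapped between groups, at 153 to 186 CPM against 141 to 197 CPM, and most of it was Sirpa and Irf8. DESeq2 called 2 genes of this list and limma voom 1. At an unadjusted p under 0.05, 3 were higher and 1 was lower, and for 2 the groups did not overlap, with DT above PBS. Itgax was 1 of these 2, at 11.6 ± 3.29 against 6.03 ± 1.07 CPM (SD, n = 4 each; adjusted p = 0.225 by edgeR). Of 6 B cell genes none passed by edgeR, against 2 lower by DESeq2 and 3 lower at an unadjusted p under 0.05, with a sum of 16.4 to 24.03 CPM against 13.7 to 34.7 CPM. Of 10 T cell genes 5 rose, with a sum of 16.7 to 20.1 CPM in the libraries labelled DT and 5.60 to 8.90 CPM in those labelled PBS.

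None of the further lysosomal genes listed passed the edgeR test. Of 33 tested lysosomal hydrolases, 0 passed by edgeR, DESeq2 or limma voom, 2 were lower at an unadjusted p under 0.05, 7 had a positive log2 fold change and the median was -0.17. Positive values made up 51.4% of all genes. Acid sphingomyelinase (Smpd1) had the lowest value, -1.39 ± 0.60 (SE; adjusted p = 0.571 by edgeR), and the carboxypeptidase Scpep1 had -0.56 ± 0.26. The summed level of the hydrolases was 3498 and 3647 CPM in PBS 1 and PBS 2 and 1996 to 2865 CPM in the other 6 libraries. When PBS 1 and PBS 2 were left out, their median was -0.03, Smpd1 was at -0.07 and Scpep1 at -0.11. Of 17 tested subunits of the proton pump that acidifies the lysosome, 1 had a positive log2 fold change, none passed by edgeR and the median was -0.23. Their sum was also highest in PBS 1 and PBS 2 (1866 and 1820 CPM, against 996 to 1633 CPM elsewhere), and without these the median was -0.10. Atp6v0a1 was lower without overlap, at 64.0 ± 1.55 against 75.2 ± 2.81 CPM (SD, n = 4 each; adjusted p = 0.214 by edgeR), and it was also the 1 subunit called by DESeq2 and the 1 at an unadjusted p under 0.05. Of 20 tested genes of lysosomal membrane and transport, none passed by edgeR and 1 was called by DESeq2. This was Slc11a1, a metal transporter of phagosomes that was also the 1 gene at an unadjusted p under 0.05 (log2 fold change 0.45 ± 0.10, SE; adjusted p = 0.192 by edgeR). Of the 5 transcription factor genes linked to lysosomal genes none passed by edgeR, DESeq2 or at an unadjusted p under 0.05, and Mitf had -0.51 ± 0.37 (adjusted p = 0.608 by edgeR).

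Of 8 further cathepsin-family genes none passed by edgeR or DESeq2, 1 was higher at an unadjusted p under 0.05, 4 had a positive log2 fold change, and the median was 0.04. The 1 higher gene was Ctse, at a low level of 0.408 ± 0.181 against 0.231 ± 0.0651 CPM (SD, n = 4 each; adjusted p = 0.565 by edgeR). Tinag was also low and higher, at 0.304 ± 0.0977 against 0.163 ± 0.0844 CPM (adjusted p = 0.571 by edgeR). Ctsg, a granule protease with the cathepsin name, had -1.72 ± 0.96 and Tinagl1, a secreted relative without protease activity, -0.42 ± 0.23 (SE; adjusted p = 0.571 by edgeR for both). Of the rodent placental cathepsin cluster and its inhibitors, 4 of 10 genes had enough reads. The cathepsins were Cts7 and Cts8, at 26.8 ± 10.5 and 6.71 ± 2.57 CPM in the libraries labelled DT and 24.2 ± 12.0 and 6.02 ± 2.83 CPM in the libraries labelled PBS (SD, n = 4 each). Ctla2a, a decidual gene that encodes a protein like the inhibitory propeptide of cathepsin L, was far more abundant, at 2471 ± 255 and 2774 ± 385 CPM. Its relative Ctla2b had a log2 fold change of -0.59 ± 0.37 (adjusted p = 0.577 by edgeR), and none of the 4 passed by edgeR or DESeq2 or at an unadjusted p under 0.05. Of 8 tested cystatin-family genes other than Cst3 none passed by edgeR or DESeq2, and at an unadjusted p under 0.05 there was 1 higher and 1 lower. These were Kng2, a kininogen, at 41.1 ± 5.20 against 32.3 ± 3.24 CPM, and Cst6 at 0.205 ± 0.0128 against 0.391 ± 0.143 CPM, both without overlap (adjusted p = 0.486 and 0.474 by edgeR).

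The 9 genes split into sets by how they varied within the groups. Deviations of log2 CPM from the group means were correlated over the 8 libraries, as a description without a test, since few libraries carry most of the spread. Ctsb, Ctsd, Ctsk, Ctsl and Ctsz, grouped after their values were seen, had Pearson r from 0.67 to 0.99 over their 10 pairs, with Ctsb and Ctsz at 0.99 and Ctsk and Ctsl at 0.96. Within the group labelled PBS, each of these genes was highest in PBS 1 and PBS 2 and lowest in PBS 4. These r therefore rest on PBS 4 as well. Cst3 went with Ctsz (0.91) and Ctsb (0.90). Ctss lay between -0.67 with Ctsl and 0.71 with Ctsh, and Ctsc reached -0.70 with Cst3.

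**Figure D4:**
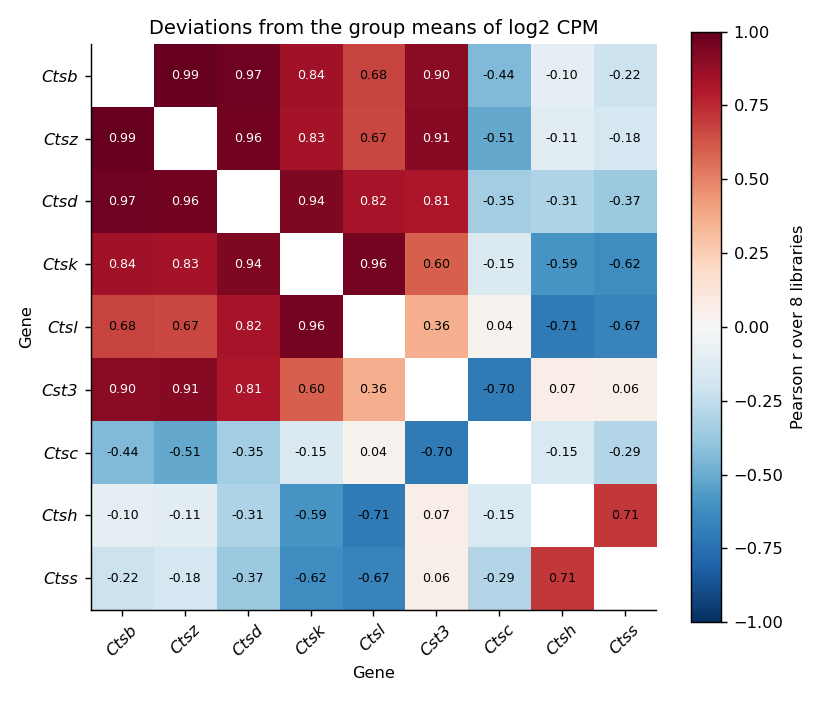
Pearson r between each pair of the 9 genes, over 8 libraries, of log2 CPM deviations from the group means (red positive, blue negative). Ctsb, Ctsz, Ctsd, Ctsk and Ctsl form a positive set (0.67 to 0.99), and Ctss is positive mainly with Ctsh (0.71).

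The same deviations were set against the summed levels of the marker lists. With the trophoblast sum, r was 0.94 for Ctsz, 0.90 for Ctsb, 0.90 for Ctsd, 0.85 for Ctsk and 0.72 for Ctsl, and -0.31 for Ctss. With the decidual sum, r was 0.97 for Ctsl and 0.89 for Ctsk but 0.49 for Ctsz and -0.77 for Ctss. With the macrophage sum, r was 0.90 for Cst3, 0.79 for Ctsb and 0.17 for Ctss. Outside PBS 1 and PBS 2 the trophoblast sum was mostly Gata2 and Gata3, and Prl8a2 carried most of the spread of the decidual sum. The points share libraries, and the part of conceptus or decidual content in any single gene's level was not tested. The genes most like each member in these deviations were, for Ctss, Rbm14 (0.97), Tsr2 (0.95) and Ly86 (0.95), and for Ctsz, Lgmn (1.00), Sema4d (1.00) and Arhgap24 (1.00). Ly86, a surface protein of B cells and macrophages, also rose between groups (log2 fold change 0.91, adjusted p = 0.0322 by edgeR), whereas Rbm14 and Tsr2 had log2 fold changes of -0.06 and -0.04, which library size scaling turned to 0.06 and 0.08. For Ctsd they were Calml3, Scpep1 and Itgb3, for Ctsb Rhbdf2, Ctsz and Lrrn4cl, for Ctsk Erv3, Ndfip2 and Clic5, and for Ctsl Rsad2, Btbd16 and Plekho1. For Cst3 they were Fcgr3, Pdlim2 and Actn3, for Ctsc Gin1, Tmem63b and Ndor1, and for Ctsh Usp54, Gse1 and Ptch1.

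**Figure D5:**
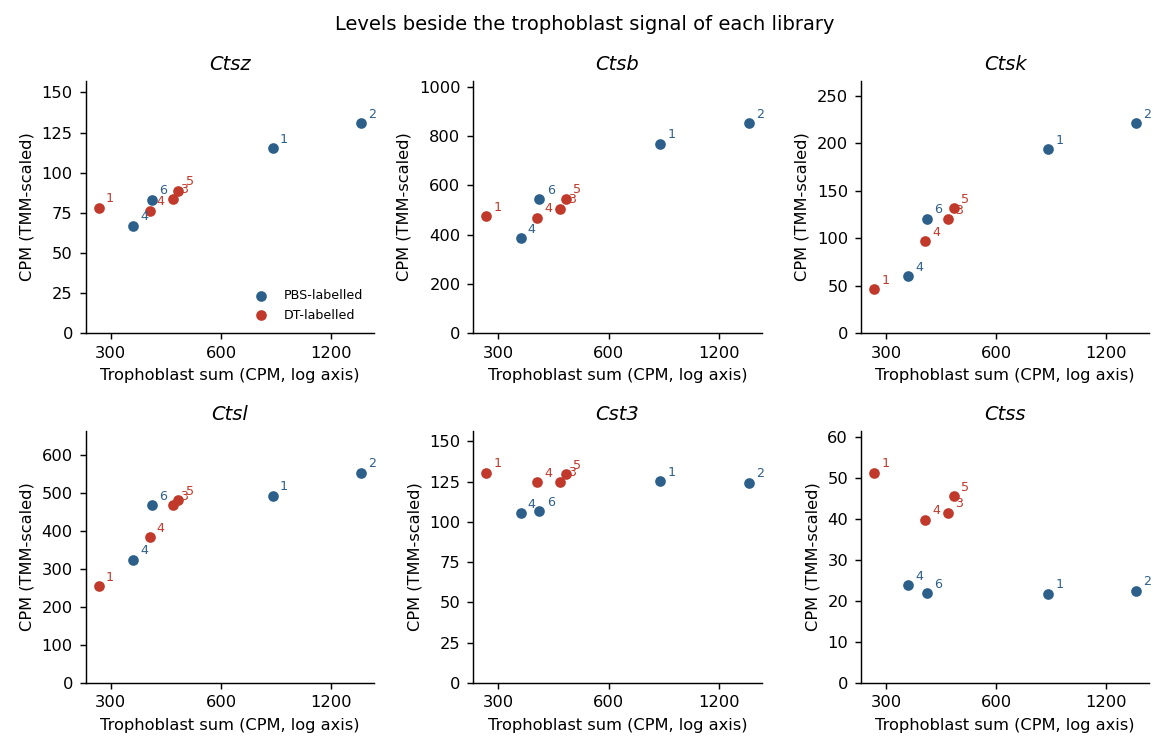
CPM of 6 genes (TMM-scaled, linear axes from 0) against the summed CPM of 13 trophoblast genes in the same library (log axis), with replicate numbers beside the points. Ctsz, Ctsb, Ctsk and Ctsl are highest in PBS 1 and PBS 2, where the trophoblast sum is 831 and 1448 CPM. Elsewhere most of this sum is Gata2 and Gata3. No library labelled DT has a trophoblast sum above 459 CPM, and Ctss is at least 39.9 CPM in all of them and at most 23.8 CPM in those labelled PBS.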

How the data were processed

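RNA from the whole uterus was sequenced in 4 libraries labelled DT and 4 labelled PBS. The authors deposited raw read counts per Ensembl identifier, as whole numbers. The submitters' processing notes name GRCm38, Trimmomatic, HISAT2, SAMtools, featureCounts and DESeq2. Their versions, the annotation and the strand setting were not found in the labels or headers, so reads of overlapping genes could not be separated. Counts were identical (0 cells differed) in the table of all libraries and the tables of each. Symbols, coordinates and exon lengths came from GENCODE mouse M21 (GRCm38) for 49326 of 49585 identifiers, and promoter windows from RefSeq (GRCm38.p6). The 259 identifiers without a match held 0.076% of the counts and stayed in the tests. Overlap with other genes was counted over 75-base windows of each gene's transcripts.

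After filterByExpr (minimum count 10, minimum total 15) and TMM scaling, differences were tested by edgeR 4.0.16 (robust quasi-likelihood fit, R 4.3.3, two-sided, no covariate), with Benjamini-Hochberg adjustment over 22693 genes and a threshold of 0.05. At 94794512 to 109847604 counts per library, the spread between libraries (common dispersion 0.0626) and not counting error limited precision. Ratios were tested by exact permutation over 70 regroupings (SciPy 1.17.1, Python 3.11.15). Alternatives were DESeq2 1.42.0, limma 3.58.1 (voom), other scalings and filters, a replicate block and left-out libraries. The fit was tested on simulated data.

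The members, lists and tests were chosen with earlier results of these data known. Named genes were the 9 members, Cd74, Ciita, H2-Ab1, Csf1r, Adgre1, Foxp3, and the 3 genes most like each member (mean log2 CPM of 0 or more, no predicted model). Others were drawn from the 4 genes of each list with the smallest unadjusted p and any called. Not all of these are named, so the choice among them was a further selection. The uterine genes are named in full, and Cd68 as the lowest value of the macrophage list. Gata2, Gata3, Sirpa and Irf8 are named because they made up most of the sum of their list in several libraries.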

Additional observations from a re-analysis of the deposited data

Results flagged for a closer look

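In 11 groups of 4 libraries among the 108 examined, 1 library lay far from the other 3 (a large gap relative to the group's range, by Dixon's test at the 95% level), and chance gives about 1 in 20. Of these, 7 concern DT 1. Ctsh measured 51.32 CPM there against 29.39 to 32.75 CPM in the other libraries labelled DT, and Cts8 2.887 against 7.569 to 8.25 CPM. In the same library the ratio of Ctss was 0.108 to Ctsb, 1.105 to Ctsk, 0.2019 to Ctsl, 0.6555 to Ctsz and 0.5413 to Csf1r, each above the other 3 libraries labelled DT, which reached at most 0.08522, 0.4105, 0.1039, 0.523 and 0.2546. Its decidual sum was the lowest of the 8 libraries, and its part in these values was not tested.

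DT 4 was high for Kng2 (48.8 CPM against 37.59 to 39.41 CPM) and Tpsb2 (15.61 CPM against 6.183 to 7.423 CPM). PBS 1 was low for H2-DMa (4.573 CPM against 5.008 to 5.044 CPM), and PBS 4 was high for Ly86 (5.554 CPM against 4.639 to 4.776 CPM).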

How the results depend on the processing

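The Ctss log2 fold change lay between 0.89 and 1.11 in all 19 alternative fits, and Ctss was called in 11 of them. It was not called without PBS 1 and PBS 2 (0.96) nor with the replicate number as a block (0.99, edgeR adjusted p = 0.996, in a fit that called 0 genes, with 280 at an unadjusted p under 0.05). In the block fit only DT 1, DT 4, PBS 1 and PBS 4 bear on the difference, so it had little power and its lost call is not informative. Leaving out 1 library gave 0.92 to 1.04, with 0 to 1 of the 9 genes called. That number was 0 without PBS 1 and PBS 2 and with the block, and 2 by DESeq2, which added Ctsc. Numbers 1 and 4 occur in both groups, and the deviations of equal numbers correlated at -0.49 and 0.32. The best match of DT 4 was PBS 4, but that of PBS 4 was DT 1. For number 1 the best matches were PBS 4 for DT 1 and DT 5 for PBS 1. These values cannot settle whether libraries were paired. Of the ratios of Ctss to 5 class II and macrophage genes, groups were apart for 2, for 1 with CPM + 1, and for 2 to 4 when 1 library was left out. No setting moved the 7 ratios to the other members beyond 7 to 8.

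Among the members and the other genes with log2 fold changes given here, signs turned only where libraries were left out. The exceptions were Rbm14 (0.057) and Tsr2 (0.078), under library size scaling alone. The cause was not tested. Without PBS 1 and PBS 2, log2 fold changes were 0.096 for Ctsb, 0.13 for Ctsk, 0.12 for Ctsz, 0.19 for Lgmn, 0.012 for Tinagl1 and 0.34 for Ctsg. Over all fits with libraries left out they ranged from -0.53 to 0.12 for Ctsb, -0.59 to 0.058 for Ctsd, -0.075 to 0.25 for Ctsh, -0.85 to 0.37 for Ctsk, -0.35 to 0.16 for Ctsl and -0.42 to 0.14 for Ctsz. The range was -0.47 to 0.23 for Lgmn, -0.22 to 0.036 for Ctla2a, -0.79 to 0.15 for Ctla2b, -0.10 to 1.09 for Cts7, -0.087 to 1.08 for Cts8, -0.56 to 0.12 for Tinagl1, -2.37 to 0.72 for Ctsg, -1.71 to 0.16 for Smpd1 and -0.70 to 0.14 for Mitf. Ctsh was at -0.054 without DT 1. Library size scaling alone moved the median of all genes to 0.12, against 0.01 with TMM, and depth limits none of the members.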
